A study of Mus musculus with 2 samples.

Results

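The 10 core genes of the circadian clock were followed in non-parenchymal liver cells: Per1, Per2, Per3, Dbp, Nr1d1, Nr1d2, Arntl, Clock, Cry1 and Cry2. They were chosen by name, and all 10 were found among the 31054 features counted. Single-cell RNA was read from preparations enriched for hepatic stellate cells (HSCs), the vitamin A-storing mesenchymal cells that make collagen in the injured liver. There were 2 libraries, 1 from p16-LRTD and 1 from p16-Alb-LRTD male mice. Mice of both genotypes carried the reporter R26-CAG-LSL-RSR-tdTomato-2A-DTR together with the p16-CreERT2 allele. The p16-Alb-LRTD mice carried Alb-DreERT2 in addition, which the p16-LRTD mice, the control genotype, lacked. The diphtheria toxin receptor needs both recombinases, 1 driven by p16 and 1 by albumin, so that the toxin removed hepatocytes that expressed p16 strongly only in p16-Alb-LRTD. Mice of both genotypes received carbon tetrachloride (CCl4), tamoxifen and diphtheria toxin over 4 weeks. HSCs were obtained by pronase and collagenase perfusion followed by a Nycodenz gradient, so the hepatocytes in which the receptor acts were not themselves measured. The age, the number of mice per library and the hour at which each liver was taken are not given in the sources used here. Clock genes follow the hour of the day, and genotype, library and hour of collection cannot be told apart in this design.

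The mammalian clock is a transcriptional feedback loop. CLOCK, or its relative NPAS2, pairs with BMAL1, the product of Arntl, and activates genes through E-box elements. Among these genes are Per1, Per2, Per3, Cry1 and Cry2, whose products form the complex that inhibits the pair. Nr1d1 and Nr1d2 encode the nuclear receptors REV-ERBα and REV-ERBβ, which repress Arntl through RORE elements, where RORα activates. Dbp encodes a PAR-bZIP factor that acts on D-box elements and is a classical direct output of the loop. In the liver, clock output sets the daily course of metabolism, and stellate, endothelial and Kupffer cells hold clocks of their own. Per1 and Per2 also respond within a short time to glucocorticoids, to cAMP signalling and to other acute stimuli.

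Cells were placed in 3 classes by summed marker UMIs (unique molecular identifiers, 1 per captured RNA molecule). A stellate cell held at least 15 UMIs of Lrat, Ecm1, Hgf and Reln per 10000. An endothelial cell held at least 8 of Kdr, Stab2 and Ptprb, and a Kupffer cell, the resident liver macrophage, at least 8 of Clec4f, Cd5l, Vsig4 and Csf1r. In p16-LRTD, 7852 stellate, 430 endothelial and 283 Kupffer cells were found among 9004 filtered cells. In p16-Alb-LRTD the numbers were 6621, 283 and 178 among 7416. The median depth was 17024 and 18136 UMIs in stellate cells, 11781 and 11992 in endothelial cells, and 19514 and 25101 in Kupffer cells. Check markers outside the rule separated endothelial from stellate cells: the summed level of Pecam1, Clec4g, Oit3, Lyve1 and Cdh5 was 4624 and 4136 UMIs per 1000000 in endothelial cells against 34.2 and 20.2 in stellate cells. In Kupffer cells that sum was 449.4 and 663.9, with Cdh5 at 361.0 and 530.3. The Kupffer class also held markers of infiltrating macrophages (Ly6c2, Ccr2, Arg1, Spp1 and Itgam), which summed to 707.8 and 526. Stellate transcripts were present in the other classes to an unequal extent, Col1a1 being at 215.0 per 1000000 in the endothelial cells of p16-LRTD and at 5.02 in those of p16-Alb-LRTD. Npas2, a clock gene strong in stellate cells, was scarce elsewhere. Its level in endothelial cells was 0.0236 times that in stellate cells in p16-LRTD and 0.0151 times in p16-Alb-LRTD. In Kupffer cells it was 0.00815 and 0.00447 times. The libraries shared 95 barcodes, of which 18 were kept in both.

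Promoters of the members were read from RefSeq (GRCm38.p6) as 300 bases, 250 before the start site and 50 after it, and searched on both strands. Windows were available for 9 of the 10 members, 13 in all, Per2 being the exception. A member was counted when any of its windows held the letters, whereas the shares over all windows are per window. Per1 and Arntl each had another window that held none of the motifs. The E-box CACGTG occurred in the windows of Cry1 and Per1, and in 7.15% of all 32851 windows of this length. The E-box variant CACGTT occurred in Cry1, Cry2 and Nr1d1, against 4.68% of all windows. The RORE letters TAGGTCA or TGGGTCA occurred in Arntl, against 6.45%. The D-box letters TTATGTAA or TTACGTAA occurred in Per3, at 2 positions, against 1.06%. The cAMP response element TGACGTCA occurred in no member and in 1.79% of all windows. None of the motifs overlapped another in the windows shown. The 4 windows below represent the 3 kinds of element through which the loop is wired, with the matched letters in capitals, and a match is a description of the letters and not evidence of binding.
Per1 (chr11:69098699-69098998, plus strand): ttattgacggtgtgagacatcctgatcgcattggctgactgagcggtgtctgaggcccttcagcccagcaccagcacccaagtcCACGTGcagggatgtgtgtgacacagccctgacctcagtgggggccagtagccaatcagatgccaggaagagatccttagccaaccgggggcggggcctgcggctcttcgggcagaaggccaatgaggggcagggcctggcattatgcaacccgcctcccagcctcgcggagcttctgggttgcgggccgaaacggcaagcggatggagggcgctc
Nr1d1 (chr11:98775328-98775627, minus strand): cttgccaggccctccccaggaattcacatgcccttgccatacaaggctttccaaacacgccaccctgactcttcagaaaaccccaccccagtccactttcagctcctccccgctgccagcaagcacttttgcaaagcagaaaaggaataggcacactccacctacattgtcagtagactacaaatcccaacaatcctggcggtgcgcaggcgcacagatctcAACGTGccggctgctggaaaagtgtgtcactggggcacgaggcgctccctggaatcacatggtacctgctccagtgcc
Per3 (chr4:151044616-151044915, minus strand): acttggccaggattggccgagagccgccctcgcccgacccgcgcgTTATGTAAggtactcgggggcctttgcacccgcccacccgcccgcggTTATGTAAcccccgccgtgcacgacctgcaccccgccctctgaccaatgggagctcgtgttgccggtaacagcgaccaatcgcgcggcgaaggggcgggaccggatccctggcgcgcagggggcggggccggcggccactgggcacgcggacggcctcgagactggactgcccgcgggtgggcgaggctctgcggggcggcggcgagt
Arntl (chr7:113207261-113207560, plus strand): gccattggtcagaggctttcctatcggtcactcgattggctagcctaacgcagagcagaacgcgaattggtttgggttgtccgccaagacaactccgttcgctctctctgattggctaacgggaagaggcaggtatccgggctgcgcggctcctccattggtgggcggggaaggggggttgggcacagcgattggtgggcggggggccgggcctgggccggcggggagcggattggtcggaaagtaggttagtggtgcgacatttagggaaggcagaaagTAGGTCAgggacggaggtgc
In the Per1 window shown, the E-box lay 166 to 161 bases before the start site. In Nr1d1 the variant, read here as AACGTG because it stands on the other strand, lay 28 to 23 bases before the start site. The RORE of Arntl lay 30 to 36 bases after it.

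Every member was detected in every class of both libraries, but the levels differed between members and between cell types. Levels are given as CPM, the UMIs of a gene summed over the cells of a class per 1000000 UMIs of that class, with 95% Poisson intervals that cover counting error only. The reads come from the 3′ end of the transcripts, so levels were not divided by transcript length. Clock, a constitutive part of the positive arm, was the most abundant member in each class of both libraries, except in the Kupffer cells of p16-Alb-LRTD, where Per1 was higher at 70.0. In stellate cells it was at 98.6 (97.0 to 100.2) in p16-LRTD and 98.2 (96.5 to 99.98) in p16-Alb-LRTD. In endothelial cells it was at 144.4 and 155.7, and in Kupffer cells at 75.5 and 64.4. The order endothelial, stellate, Kupffer therefore held for Clock in both libraries, with each neighbouring pair apart by more than counting error. Arntl, the partner of Clock, had the same order, at 70.7, 63.4 and 38.9 in p16-LRTD and at 90.6, 54.5 and 42.0 in p16-Alb-LRTD. The gap between its endothelial and stellate levels was narrow in p16-LRTD, with a log2 ratio of 0.16 (0.01 to 0.30). Npas2, which can replace Clock, was a stellate transcript, at 123.9 and 100.0 in stellate cells against at most 2.93 elsewhere.

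**Figure D1:**
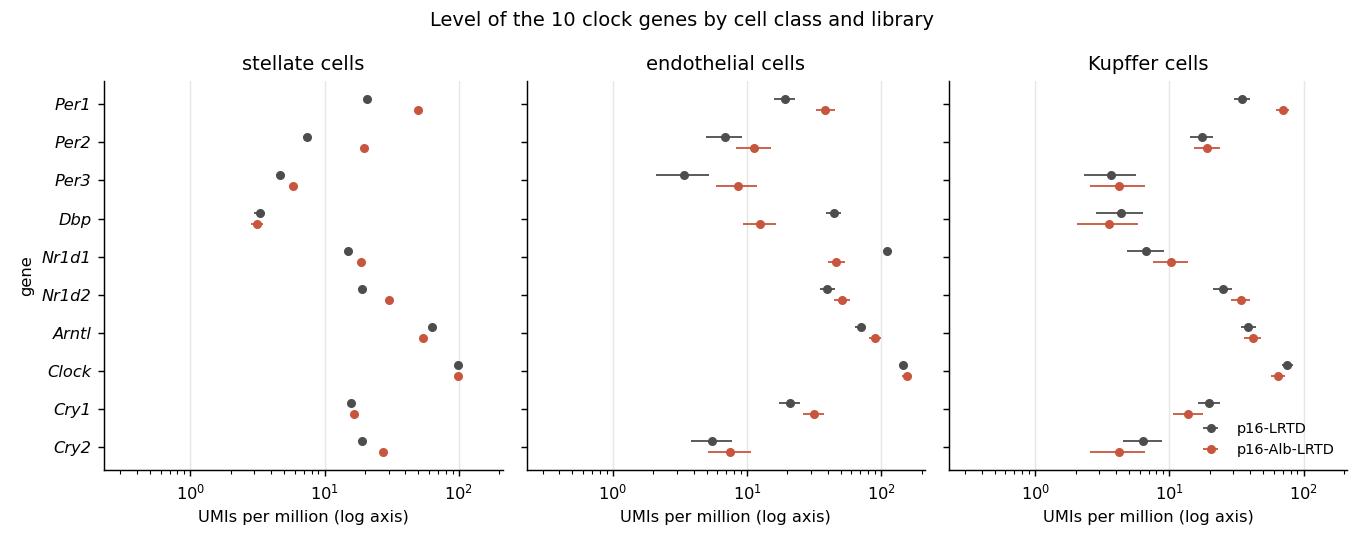
Level of the 10 clock genes in CPM (log axis) in stellate, endothelial and Kupffer cells. Points are the sums of 1 library, grey for p16-LRTD and red for p16-Alb-LRTD, and bars are 95% Poisson intervals. Clock and Arntl are the most abundant members in stellate cells, and in endothelial cells the grey points of Nr1d1 (111.3) and Dbp (44.2) lie to the right of the red ones (46.4 and 12.6).

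Among the repressors, Cry2 stood out as a stellate transcript. It was at 19.1 in p16-LRTD and 27.0 in p16-Alb-LRTD stellate cells, and in the other classes it lay between 4.25 and 7.53. Cry2 did not separate endothelial from Kupffer cells beyond counting error in either library, their log2 ratio being -0.21 (-0.92 to 0.50) and 0.83 (-0.05 to 1.74). Cry1, its paralogue, was more even, between 13.9 and 31.4 over the 6 values. Per1, an inducible period gene, was highest in Kupffer cells of both libraries. Its level there was 1.67 times that of stellate cells in p16-LRTD and 1.42 times in p16-Alb-LRTD. Dbp and Nr1d1 were highest in endothelial cells of both libraries, in p16-LRTD through 41 cells that are described with the endothelial results and without which Nr1d1 was at 11.2, below its stellate level of 14.99, and Dbp at 4.48. Dbp, with 44.2 in endothelial cells of p16-LRTD, was at 3.28 in stellate and 4.37 in Kupffer cells of that library, and the last pair did not differ beyond counting error. Per3 was the scarcest or next to scarcest member everywhere, with 3.41 to 8.54.

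In stellate cells Per1 and Per2 had the largest differences of the members between the genotypes. Per1 was at 20.8 CPM (2967 UMIs) in p16-LRTD and at 49.3 (6170 UMIs) in p16-Alb-LRTD, 2.37 times as high. Per2, the paralogue of Per1, was at 7.39 and 19.5, which is 2.64 times as high. On the log2 scale the differences were 1.25 (1.18 to 1.31) for Per1 and 1.40 (1.30 to 1.51) for Per2. Per3 differed less, at 4.66 and 5.80, a log2 difference of 0.32 (0.16 to 0.47). There was 1 library per genotype, so no test was possible, and each difference is one between libraries whose spread between mice is unknown.

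Both receptors of the second loop and Cry2 were also higher in p16-Alb-LRTD stellate cells, to a smaller extent, whereas the interval of Cry1 included 0. Nr1d2 was at 19.2 and 30.4, a log2 difference of 0.66 (0.59 to 0.74). Nr1d1, its paralogue, was at 14.99 and 18.6, a log2 difference of 0.31 (0.23 to 0.40). Cry2 was at 19.1 and 27.0, with a log2 difference of 0.50 (0.43 to 0.57), and Cry1 at 15.8 and 16.5, with 0.07 (-0.02 to 0.15). The positive arm did not share this direction. Arntl was at 63.4 in p16-LRTD and 54.5 in p16-Alb-LRTD, a log2 difference of -0.22 (-0.26 to -0.17). For Clock the log2 difference was -0.01 (-0.04 to 0.03), an interval that leaves room for little change in either direction as far as counting goes. Dbp was nearly level, at 3.28 and 3.13, with a log2 difference of -0.07 (-0.26 to 0.13).

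A gene was counted as past the fold when it averaged at least 5 CPM over the libraries and differed 1.5-fold or more. In stellate cells 9 of the 10 members reached that level, Dbp being the exception. Of these, 3 were past the fold in the direction of p16-Alb-LRTD, namely Per1, Per2 and Nr1d2, and the background over all 10179 genes at that level was 3.03%. None was past it in the other direction, where the background was 3.05%. The median log2 difference of the 9 members was 0.32, beside -0.05 over all genes of the class.

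**Figure D2:**
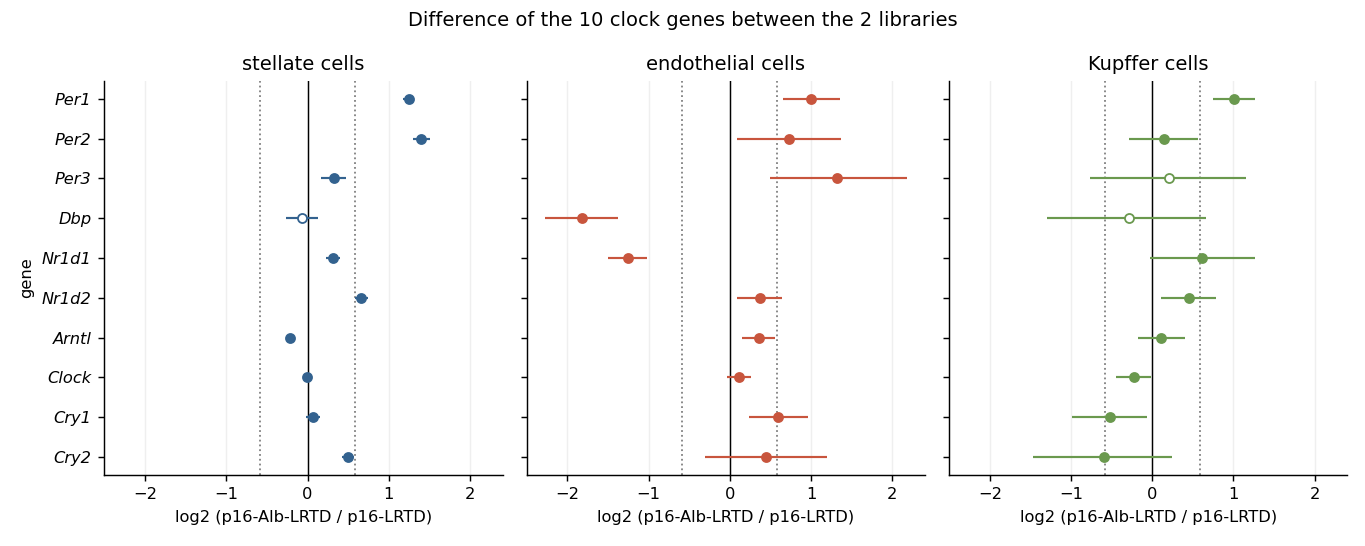
Log2 difference between the libraries (p16-Alb-LRTD over p16-LRTD) of the 10 clock genes in 3 cell classes, with 95% intervals for counting error. Dotted lines mark 1.5-fold and open circles are genes that averaged under 5 CPM. Per1 lies near 1 in each panel (1.25, 1.0 and 1.01), whereas Dbp and Nr1d1 lie far below 0 in endothelial cells alone (-1.82 and -1.26).

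The higher Per1 and Per2 of p16-Alb-LRTD were seen in the number of cells as well as in the sums. Cells were thinned to 5000 UMIs each to remove differences in depth, which left out 16 and 7 shallower stellate cells. A Per1 UMI was then found in 9.47% (8.83 to 10.1) of stellate cells of p16-LRTD and in 21.3% (20.3 to 22.3) of those of p16-Alb-LRTD. Without thinning the shares were 28.5% and 57.3%. For Per2 the thinned shares were 3.42% (3.03 to 3.85) and 8.63% (7.97 to 9.34). The UMIs were spread widely, 50% of the Per1 UMIs being held by 756 and 1144 cells, and no stellate cell held more than 9. For Arntl the shares were 25.7% and 23.5%, and for Clock 37.6% and 36.3%. Clock genes are used in nearly all cell types, so no class could serve as a measure of free RNA for them.

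Many immediate-early, heat shock and glucocorticoid-induced genes were also higher in p16-Alb-LRTD stellate cells, where 3.03% of all genes were past the fold upwards. Per1 is itself known to be inducible by such signals. Of 19 immediate-early genes measured in stellate cells, 19 lay above 0 and 8 were past the fold, and their sum was 9406 CPM in p16-LRTD and 14150 in p16-Alb-LRTD. Fos, the best known of them, was at 1347 and 2260. Of 10 heat shock genes, 8 were past the fold, with Hspa8, a constitutive chaperone, at 522.1 and 942.0. Of 12 glucocorticoid-induced genes, 8 were past the fold, among them Zbtb16, a transcriptional repressor, at 59.5 and 647.1, and Sgk1, a kinase, at 191.3 and 360.9. None of these 3 lists had a member past the fold in the other direction. Of 8 collagen and activation genes, 7 were past the fold in the other direction, beside 3.05% of all genes. Their part in the clock differences was not tested.

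Stellate cells were then compared by per-cell scores: UMI depth, mitochondrial share, and the UMIs of immediate-early, heat shock and collagen genes. Each score was held within 3 ranges of equal cell number over both libraries, and the difference was taken inside each range. The glucocorticoid-induced genes were not held as a score, so whether Per1 stayed higher at an equal level of them was not tested. Per1 remained higher in p16-Alb-LRTD in each of the 15 ranges, with log2 differences from 0.96 to 1.69. Within the lowest range of immediate-early UMIs, Per1 was at 15.9 in p16-LRTD and 47.1 in p16-Alb-LRTD, and within the highest at 25.9 and 50.1. In p16-LRTD the level of Per1 therefore went up with the immediate-early score, whereas in p16-Alb-LRTD it lay between 47.1 and 50.1. Per2 was likewise higher in each of the 15 ranges, from 1.10 to 1.95, and Nr1d2 too, from 0.51 to 0.97. Cry2 ranged from 0.32 to 0.81. Nr1d1 was not higher in every range: it was at -0.03 (-0.31 to 0.24) in the lowest range of heat shock UMIs and at -0.10 (-0.29 to 0.09) in the highest range of collagen UMIs, and otherwise between 0.11 and 0.83. The share of stellate cells with an Nr1d1 UMI was 7.25% and 7.39% after thinning to 5000 UMIs. After thinning to 3000 it was 4.02% and 5.09%, and without thinning 20.8% and 24%. The lower level of Arntl depended on the score held. It lay between -0.12 and -0.30 within ranges of mitochondrial share, but at 0.02 (-0.11 to 0.15), 0.00 and -0.04 within ranges of heat shock UMIs.

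Dbp in stellate cells was level over all cells, but not within ranges of depth or of collagen expression, which differed in their cell numbers between libraries. By depth its log2 difference was 1.22 (0.75 to 1.70) in the lowest range, -0.30 (-0.66 to 0.05) in the middle and -0.44 (-0.72 to -0.15) in the highest. In the lowest range of collagen UMIs it was at 0.857 in p16-LRTD and 2.44 in p16-Alb-LRTD, a log2 difference of 1.51 (0.91 to 2.16). In the middle range it was at 1.27 and 3.52, a difference of 1.47 (1.0 to 1.97). In the highest range the order turned, with 5.39 and 3.80 and a difference of -0.50 (-0.84 to -0.18). That range held 3536 p16-LRTD and 1289 p16-Alb-LRTD cells. In p16-LRTD, 393 of the 468 Dbp UMIs of stellate cells were in that range. All of these values rest on cells with few UMIs each, since no more than 5.25% of stellate cells held a Dbp UMI.

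**Figure D3:**
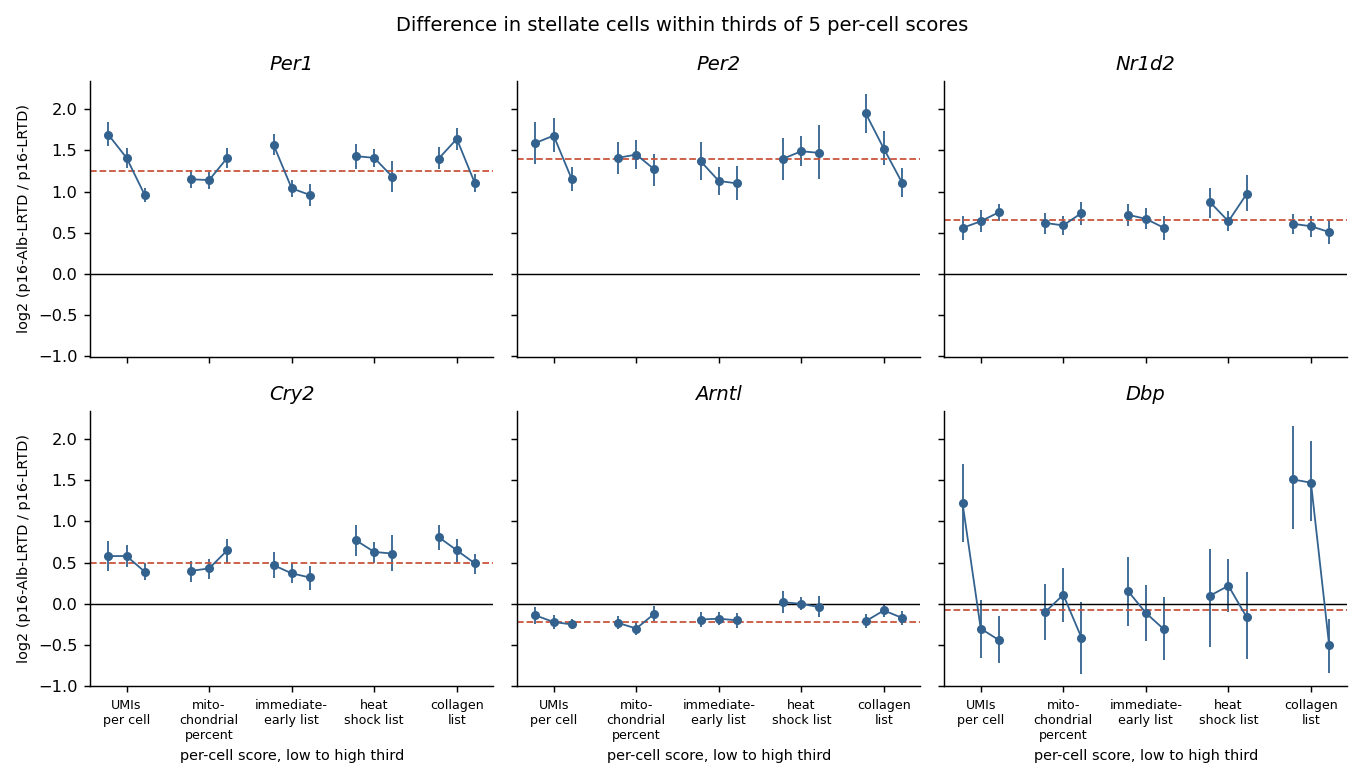
Log2 difference between the libraries (p16-Alb-LRTD over p16-LRTD) in stellate cells within 3 ranges, low to high, of 5 per-cell scores. Bars are 95% intervals for counting error and the dashed line is the value over all stellate cells. Per1, Per2, Nr1d2 and Cry2 stay above 0 in every range, Arntl lies at 0.02, 0.00 and -0.04 within ranges of the heat shock list, and Dbp goes from 1.51 to -0.50 along the collagen list.

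In endothelial cells the members split. Per1 was at 19.2 CPM (118 UMIs) in p16-LRTD and 38.4 (153 UMIs) in p16-Alb-LRTD, a log2 difference of 1.0 (0.65 to 1.36). Dbp lay the other way, at 44.2 (272 UMIs) and 12.6 (50 UMIs), a log2 difference of -1.82 (-2.28 to -1.38). Nr1d1 was at 111.3 (685 UMIs) and 46.4 (185 UMIs), a log2 difference of -1.26 (-1.50 to -1.02). Dbp and Nr1d1 were thus lower in p16-Alb-LRTD in sums over all endothelial cells, while Nr1d2, the paralogue of Nr1d1, was at 39.65 and 51.2. All 10 members averaged 5 CPM, Per3 only through p16-Alb-LRTD, so that its count among the genes past the fold carries no weight. Per1, Per2, Per3 and Cry1 were past the fold upwards, 4 of 10 beside a background of 6.44%, and Dbp and Nr1d1 downwards, 2 of 10 beside 13.5%. The log2 differences of Per2, Per3 and Cry1 were 0.73 (0.09 to 1.37), 1.32 (0.50 to 2.18) and 0.59 (0.23 to 0.96). Per2 fell short of the fold without proliferating cells, at 0.55 (-0.10 to 1.19), and Cry1 under several settings, the lowest being 0.26 (-0.02 to 0.54) with barcodes of more than 1 class kept. Arntl was at 70.7 and 90.6, with a log2 difference of 0.36 (0.15 to 0.56), whereas the median over all genes of the class was -0.10. With barcodes of more than 1 class kept, Arntl was at 0.05 (-0.09 to 0.20). Among the 123 and 161 endothelial cells with no UMI of Col1a1, Col1a2 or Col3a1, Nr1d2 turned to -0.29 (-0.74 to 0.16).

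The endothelial sums of Dbp and Nr1d1 were carried by few cells. Of the 272 Dbp UMIs of p16-LRTD, 39 were in 1 cell and 6 cells held 50%, and of the 685 Nr1d1 UMIs 62 were in 1 cell and 9 cells held 50%. Ciart, which encodes another repressor of the loop and is a target of it, was at 28.4 in p16-LRTD and 4.02 in p16-Alb-LRTD, and followed the same pattern. By a limit chosen after these values had been seen, 41 of 430 endothelial cells of p16-LRTD (9.53%, 6.93 to 12.7) and 7 of 283 of p16-Alb-LRTD (2.47%, 1.0 to 5.03) held 5 or more UMIs of Dbp, Nr1d1 and Ciart together. The 41 cells of p16-LRTD held 92% of the UMIs of these 3 genes in their class, and the 7 cells of p16-Alb-LRTD 38.2%. The cells were deeper than the rest, with medians of 19149 against 11404 UMIs in p16-LRTD and 17205 against 11870 in p16-Alb-LRTD. After thinning to 5000 UMIs, 3 or more UMIs were found in 5.98% (3.91 to 8.70) and 1.41% (0.386 to 3.58) of cells. In stellate cells the share with 5 or more was 0.115% and 0.544%, and in Kupffer cells 0.707% and 1.12%. Without the 9 and 36 stellate cells so chosen, the stellate log2 difference of Dbp was -0.33 (-0.54 to -0.12), a value shaped by the choice of cells. Cells within a library are not independent, and UMIs of these genes lay together in few cells. The Poisson intervals of Dbp, Nr1d1 and Ciart in endothelial cells are therefore too narrow. The same holds there for other genes with many UMIs in the 41 cells, among them Per1 (82 of 118), Nr1d2 (172 of 244), Hlf (83 of 90) and Klf10 (495 of 841).

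**Figure D4:**
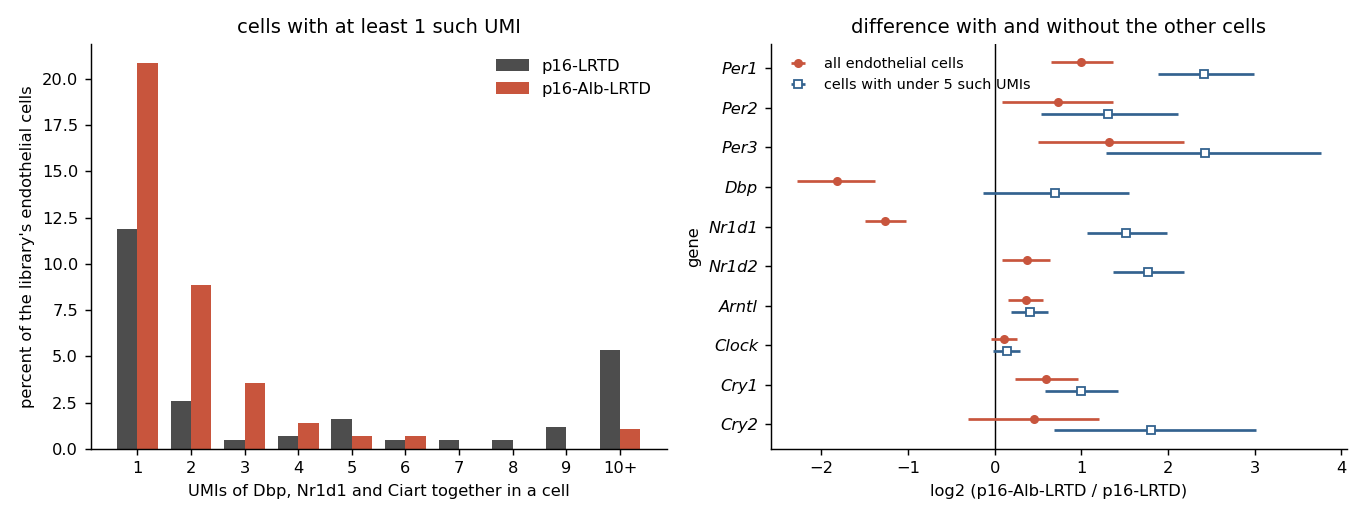
Left, percent of endothelial cells of each library (grey p16-LRTD, red p16-Alb-LRTD) by the number of UMIs of Dbp, Nr1d1 and Ciart in the cell. Right, log2 difference between the libraries with 95% counting intervals over all endothelial cells (filled circles) and over cells with under 5 such UMIs (open squares), where Nr1d1 goes from -1.26 to 1.52 and Dbp from -1.82 to 0.70.

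Without those cells Dbp and Nr1d1 lay higher in p16-Alb-LRTD, the reverse of the sums over all cells. Among the other endothelial cells Nr1d1 was at 11.2 in p16-LRTD and 32.2 in p16-Alb-LRTD, a log2 difference of 1.52 (1.07 to 1.99). Dbp was at 4.48 and 7.28, a difference of 0.70 (-0.14 to 1.55). The other members went partly with these genes: the 41 cells held 82 of the 118 Per1 UMIs and 172 of the 244 Nr1d2 UMIs of p16-LRTD, and the 7 cells held 15 of 153 and 27 of 204 in p16-Alb-LRTD. The values of all members without these cells are thus shaped by the choice of cells, describe where the UMIs lay and are not a separate estimate of the difference. Per1 was at 6.72 and 35.9 in the other cells, a log2 difference of 2.42 (1.88 to 2.99), Per3 at 1.49 and 8.06, and Nr1d2 at 13.5 and 46.0. The values of Clock and Arntl changed little, to 0.14 (-0.02 to 0.29) and 0.41 (0.19 to 0.62). The share of thinned endothelial cells with a Per1 UMI was 5.50% (3.52 to 8.14) in p16-LRTD and 18.7% (14.4 to 23.8) in p16-Alb-LRTD. For Dbp the shares were 6.94% (4.70 to 9.81) and 4.24% (2.21 to 7.29), and for Nr1d1 12.9% and 14.8%.

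Other targets of the loop were also higher in the cells rich in Dbp, Nr1d1 and Ciart. In p16-LRTD they held 781.8 CPM of Nr1d1 against 11.2 in the rest, which the limit itself ensures. Tef and Hlf, which encode the other PAR-bZIP factors, were at 86.3 against 1.68 and at 103.8 against 1.31. Nr1d2 was at 215.1 against 13.5, Per1 at 102.6 against 6.72, and Cry2 at 30.02 against 1.87. Arntl was at 86.3 against 68.4, and Clock at 161.4 against 141.9. In the 7 cells of p16-Alb-LRTD, Nr1d2 was at 200.6 against 46.0, Per1 at 111.5 against 35.9 and Arntl at 89.2 against 90.7. The leading genes outside the lists, chosen after their values were seen among those at 100 or more CPM in the 41 cells, were Gdf15 at 271.4 against 4.67, 1810032O08Rik at 106.3 against 5.98, Ebf1 at 100.1 against 6.35, Mlph at 146.3 against 12.5 and Neurl3 at 646.7 against 57.7. In p16-Alb-LRTD the 7 cells held 89.2 CPM of Mlph against 4.68 and 869.3 of Neurl3 against 57.4, but Gdf15 rested on 1 UMI, at 7.43 against 2.86. The 41 cells also held less collagen and activation RNA than the rest, 87.6 against 789.4 CPM over 8 genes, and 6219 against 9846 of the endothelial markers. Their summed immediate-early level was 10692 against 4962 CPM, and their median mitochondrial share 1.81% against 2.9%. The summed lymphocyte markers were at 56.3 against 2.99, and in p16-Alb-LRTD at 0 in the 7 cells and 0.26 in the rest. The part of these differences in the pattern was not tested.

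The endothelial difference of Per1 also varied with other scores, when the endothelial cells of both libraries were divided into 2 ranges of equal number. By mitochondrial share its log2 difference was 0.43 (-0.02 to 0.87) in the lower and 2.61 (1.84 to 3.46) in the upper range, and by depth 1.94 (1.17 to 2.76) and 0.70 (0.28 to 1.12). In the lower range of the immediate-early score Per1 was at 6.86 in 295 cells of p16-LRTD and 36.6 in 61 cells of p16-Alb-LRTD. In the upper range it was at 46.2 in 135 and 38.8 in 222 cells, a log2 difference of -0.25 (-0.65 to 0.16). The higher Per1 of p16-Alb-LRTD was thus not seen in endothelial cells with a high immediate-early score, a range that in p16-LRTD also held much of the Dbp and Nr1d1 (109.0 and 285.0 CPM). In all endothelial cells 13 of 18 immediate-early genes were past the fold upwards, beside 6.44% of all genes, and none downwards, beside 13.5%.

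In Kupffer cells Per1 was again higher in p16-Alb-LRTD, at 34.8 (207 UMIs) and 70.0 (313 UMIs), a log2 difference of 1.01 (0.75 to 1.27). A Per1 UMI was found in 15.1% (11.1 to 19.9) and 28.2% (21.7 to 35.5) of thinned Kupffer cells. Per2 did not follow, at 17.5 and 19.2 with a log2 difference of 0.14 (-0.29 to 0.56). Nr1d2 was at 24.9 and 34.0, a log2 difference of 0.45 (0.11 to 0.79). Cry1, the repressor, was at 19.8 in p16-LRTD and 13.9 in p16-Alb-LRTD, a log2 difference of -0.52 (-0.99 to -0.06), and Clock was at 75.5 and 64.4, with -0.23 (-0.45 to -0.01). At least 5 CPM were reached by 8 members. Per1 and Nr1d1 were past the fold upwards, 2 of 8 beside a background of 5.21%, and Cry2 downwards, 1 of 8 beside 6.83%. Cry2 averaged 5 CPM only through p16-LRTD, so that its count carries no weight. The call for Nr1d1 rested on 40 and 46 UMIs and that for Cry2 on 38 and 19, and both of their intervals include 0, at 0.61 (-0.03 to 1.26) and -0.59 (-1.47 to 0.24). Kupffer cells of p16-Alb-LRTD were deeper than those of p16-LRTD, and in 2 ranges of UMI depth the log2 difference of Per1 was 1.2 (0.76 to 1.64) and 1.01 (0.67 to 1.35). Among Kupffer cells with no UMI of Col1a1, Col1a2 or Col3a1, which left 40 p16-LRTD and 87 p16-Alb-LRTD cells, it was 0.57, Nr1d2 turned to -0.38 (-1.08 to 0.37) and Nr1d1 to -0.87 (-2.07 to 0.40). Nr1d1 was also short of the fold with looser markers, with barcodes of more than 1 class kept and without proliferating cells, at 0.52, 0.39 and 0.39. The call for Cry2 was lost under several other settings, TMM scaling and the omission of the shared barcodes among them. In Kupffer cells 7 of 20 immediate-early, 6 of 10 heat shock and 6 of 11 glucocorticoid-induced genes were also past the fold upwards. The share of all genes was 5.21%. Downwards the numbers were 0, 1 and 1, beside 6.83%. Their part in the Kupffer differences was not tested.

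Per1 was the only member past the fold in all 3 classes, and 0.834% of the 8158 genes measured in each class were past it upwards in all of them. Downwards in all classes the background was 0.233%, with no member. In cells with no collagen UMI the Kupffer value of Per1 was 0.57 (-0.01 to 1.2), short of the fold. Over all cells the Per1 differences of the classes were within 0.24 of each other on the log2 scale, with intervals that include 0. Without the cells rich in Dbp, Nr1d1 and Ciart the endothelial value was 2.42 (1.88 to 2.99) and the others 1.25 and 0.99. For Per2 the stellate difference exceeded the Kupffer difference by 1.26 (0.84 to 1.69). The difference of Arntl was larger in endothelial than in stellate cells by 0.58 (0.37 to 0.78) over all cells. For Cry1 the endothelial difference exceeded the Kupffer difference by 1.11 (0.54 to 1.68). These intervals cover counting error and do not include the spread between libraries. Those that involve endothelial cells are too narrow for genes whose UMIs lay in few cells, such as Per1.

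The wider list of E-box targets, 15 genes that include members, lay mostly above 0 in stellate cells. Of the 10 measured there, 6 of them members described above, 9 lay above 0 and 4 were past the fold, beside 3.03% of all genes, with a median log2 difference of 0.53, that of all genes being -0.05. Usp2, a ubiquitin protease under clock control, was the addition to the members, at 10.4 and 19.95. Wee1, a cell cycle kinase and classical E-box target, was at 19.6 and 28.8. Hlf was scarce but higher, at 0.890 and 2.93, and Tef was at 10.9 and 13.1. Bhlhe40, a repressor that competes at E-boxes, was the exception at 150.7 and 136.7. In endothelial cells the list split, with 3 of 12 past the fold upwards and 5 downwards (Dbp, Nr1d1, Hlf, Ciart and Wee1), beside 6.44% and 13.5% of all genes, and a median of 0.11. The 41 p16-LRTD cells rich in Dbp, Nr1d1 and Ciart held 83 of the 90 Hlf UMIs and 168 of the 175 Ciart UMIs. Without the cells so chosen in both libraries the log2 difference of Hlf was 2.62 (1.41 to 4.05), and that of Wee1 -0.97 (-1.93 to -0.09). These values too are shaped by the choice of cells. The endothelial median depended on the cells, being 1.42 without the cells rich in Dbp, Nr1d1 and Ciart, -0.36 in cells with no collagen UMI and between -0.06 and 0.37 under the other settings. Wee1 and Ciart averaged 5 CPM there only through p16-LRTD. In Kupffer cells 3 of 10 were upwards and 2 downwards, beside 5.21% and 6.83% of all genes, and both of the latter, Cry2 and Bhlhe41, averaged 5 CPM only through p16-LRTD. Wee1 was there at 7.91 and 20.3, and Bhlhe41, the relative of Bhlhe40, at 13.1 and 3.13.

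The list of genes under RORE control had medians of either sign over the 3 classes. Of 6 measured in stellate cells, 1 was past the fold upwards, beside 3.03% of all genes. This was Nfil3, which encodes a repressor at D-boxes, at 13.7 and 21.3. Npas2 was lower at 123.9 and 100.0, and the median was 0.03. In endothelial cells 4 were measured and all lay above 0, with a median of 0.33 that was 0.03 with barcodes of more than 1 class kept. Cry1 alone of these was past the fold, beside 6.44% of all genes. Rora, which encodes the activator at ROREs, was at 497.2 and 615.1 in endothelial and at 554.6 and 587.7 in stellate cells. In Kupffer cells Rora was at 12.95 and 5.14 only, past the fold downwards, beside 6.83% of all genes. The median of 5 genes there was -0.23.

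The kinases and ubiquitin ligases that set the stability of the clock proteins were nearly level. Their medians were 0.06, 0.15 and 0.08 in stellate, endothelial and Kupffer cells. Of 12, 12 and 11 genes measured, Prkaa2 alone, a catalytic subunit of AMP-activated kinase, was past the fold. It was at 7.05 and 13.9 in stellate cells, where 3.03% of all genes were past it upwards and 3.05% downwards. In endothelial cells these shares were 6.44% and 13.5%, and in Kupffer cells 5.21% and 6.83%. Csnk1d and Csnk1e, the casein kinases that phosphorylate the period proteins, differed by 0.10 and 0.11 in stellate cells.

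Of other clock-linked genes, 9, 9 and 11 were measured in stellate, endothelial and Kupffer cells. Klf9, a glucocorticoid-inducible and clock-controlled repressor, was past the fold upwards in each class, beside 0.834% of the 8158 genes measured in each class. It was at 341.9 and 558.4 in stellate, 104.2 and 350.0 in endothelial and 69.97 and 145.1 in Kupffer cells. Nampt, the rate-limiting enzyme of NAD salvage, was at 34.0 and 51.6 in stellate cells, and Por, which supplies electrons to cytochrome P450 enzymes, at 66.9 and 111.6. Noct, a deadenylase-like phosphatase with daily rhythm, was at 48.4 and 103.3 in Kupffer cells. Klf10 and Tspan4 were past the fold downwards in endothelial cells, 2 of 9 beside 13.5% of all genes. They were at 136.6 and 82.9 and at 130.3 and 67.5. Klf10 was at 619.2 CPM in the 41 endothelial cells rich in Dbp, Nr1d1 and Ciart and at 64.6 in the rest of p16-LRTD. Without such cells, 41 in p16-LRTD and 7 in p16-Alb-LRTD, Klf10 was at 64.6 and 72.5, a log2 difference of 0.17 (-0.07 to 0.40). Its call downwards was lost, but this value is shaped by the choice of cells and is not a separate estimate.

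**Figure D5:**
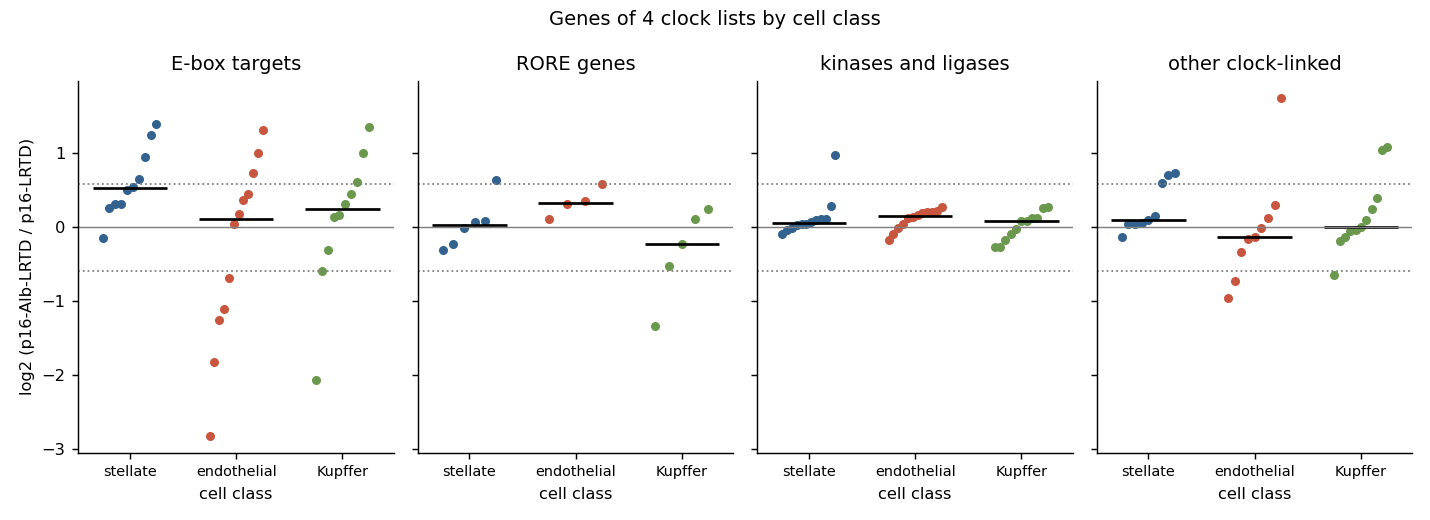
Log2 difference between the libraries (p16-Alb-LRTD over p16-LRTD) of the genes of 4 clock lists, 1 point per gene with at least 5 CPM on average. Black bars are medians, 0.53, 0.11 and 0.24 for E-box targets and 0.06, 0.15 and 0.08 for kinases and ligases, and dotted lines mark 1.5-fold.

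The genes whose 3 log2 differences lay nearest to those of Dbp, among 4954 genes that reached 20 CPM in at least 1 library in each class, were Lpl, Timm10, Pf4, Myc and Snhg12. Lpl, lipoprotein lipase, differed by -0.18, -1.82 and -0.46 in stellate, endothelial and Kupffer cells, at a Euclidean distance of 0.204 from Dbp. Among the nearest to Arntl were Mast2, Psd3, Vps13b and Ttc7b, at distances of 0.0483 to 0.0939. The likeness is over 3 values each. For Dbp the endothelial value of -1.82 was carried by few cells and was 0.70 without those rich in Dbp, Nr1d1 and Ciart. Dbp also averaged under 5 CPM in stellate and Kupffer cells. Its nearest genes thus depend on those few cells, and the ranking was not made without them.

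The reads of overlapping genes limit some of these values. Nr1d1 lies at chr11:98767932-98775333 on the minus strand, and overlaps Thra, a thyroid hormone receptor gene on the other strand. Thra was at 133.3 and 121.5 in stellate and 108.5 and 99.4 in endothelial cells, with an endothelial log2 difference of -0.13 (-0.31 to 0.05) beside the -1.26 of Nr1d1. Dbp, at chr7:45705088-45710203, overlaps Sphk2 on the other strand, and Per3, at chr4:151003652-151044665, overlaps Camta1 on the same strand. Per1, at chr11:69095217-69109960, and Per2, at chr1:91415982-91459324, overlap no other feature of the files.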

How the data were processed

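Each of the 2 files that the authors deposited holds unnormalized UMI counts for every feature and barcode of 1 library of 10x Genomics 3′ chemistry. Per the labels they were made with Cell Ranger 7.0.1 against mm10. Whether intronic reads were counted is not given in the sources used here. From these counts, barcodes were kept with 2000 to 7000 genes, at most 50000 UMIs and a mitochondrial share of at most 5%, after the limits of the study. No doublet caller was used; barcodes that met more than 1 class rule (245 and 221) were removed. Counts were summed per library and class and scaled to CPM (per 1000000 UMIs). Intervals are 95% exact Poisson (levels), exact conditional (ratios) and Clopper-Pearson (shares), computed with SciPy 1.17.1 under Python 3.11.15, and cover counting error only. With 1 library per genotype no test and no p-value were possible. The ratio and its interval were tried on simulated Poisson counts, which share the assumption of the interval. The simulation held no clumping of UMIs in few cells and no spread between mice, so it says nothing on these. Scaling alternatives used edgeR 4.0.16 and DESeq2 1.42.0 under R 4.3.3. Coordinates are from GENCODE vM21 (GRCm38), to which 30934 of 31054 features were matched by identifier. The 10 members, the gene lists and the rules for cells were chosen with earlier results of these data known. Named beyond the members were genes of the clock lists, at most 4 genes of each other list by level in stellate cells, and the 5 genes nearest to Dbp and to Arntl, except items that are not reported here. The genes that lead the endothelial cells rich in Dbp, Nr1d1 and Ciart, the heat shock ranges and the ranges in endothelial and Kupffer cells were chosen after the values had been seen.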

Additional observations from a re-analysis of the deposited data

Results flagged for a closer look

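Several clock genes differed between the libraries in opposite directions in different cell classes. The differences were not tested, since each genotype had 1 library, and are given as the log2 difference of one class less that of the other. Nr1d1 was higher in p16-Alb-LRTD stellate cells and lower in endothelial cells, a gap of 1.57, and its endothelial direction turned without the 41 and 7 endothelial cells rich in Dbp, Nr1d1 and Ciart. Cry1 was higher in p16-Alb-LRTD endothelial cells and lower in Kupffer cells, a gap of 1.11. Arntl was higher in endothelial and lower in stellate cells, a gap of 0.58, but was at 0.05 in endothelial cells with barcodes of more than 1 class kept and at 0.02, 0.00 and -0.04 in stellate cells within ranges of heat shock UMIs. Among the other clock genes, Wee1 separated stellate from endothelial cells by 1.66 and Kupffer from endothelial cells by 2.46. Rora, scarce in Kupffer cells, separated stellate and endothelial cells from Kupffer cells by 1.42 and 1.64. Noct separated Kupffer from endothelial cells by 1.42, and Klf10 by 0.97. Without the cells rich in Dbp, Nr1d1 and Ciart, Klf10 was at 0.25 in Kupffer and 0.17 in endothelial cells, and Noct at 1.09 and 0.03. These values are shaped by the choice of cells. Tspan4 separated stellate from endothelial cells by 1.05. Bhlhe40 showed gaps of 0.32 (endothelial over stellate) and 0.49 (endothelial over Kupffer), and Gsk3b, a kinase of the loop, one of 0.25 (endothelial over stellate).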

How the results depend on the processing

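No paired analysis was possible because there was only 1 library of either genotype, and no replicate could be left out. Over 14 settings of cells and scaling, 410 member differences were recomputed: 387 stayed within their counting interval, 19 moved outside it and 4 differences whose interval had excluded 0 changed sign. Some whose interval included 0 also changed sign, such as Nr1d1, Per2 and Arntl in Kupffer cells with no collagen UMI (-0.87, -0.47 and -0.64). Per1 in stellate cells ranged from 1.23 to 1.36 and Per2 from 1.38 to 1.5. Without the endothelial cells rich in Dbp, Nr1d1 and Ciart, a setting added after seeing the data, Dbp reversed to 0.70 and Nr1d1 to 1.52, no member was past the fold downwards (0), and the median of E-box targets was 1.42. In cells with no collagen UMI, also added, Nr1d2 reversed to -0.29 in endothelial and -0.38 in Kupffer cells. Kupffer counts became 0 upwards and 5 downwards there, where only 40 and 87 cells were left. The share of all genes past the fold was not computed for any of these settings, so the counts have no background beside them. In cells with no collagen UMI the medians of E-box targets were -0.36 in endothelial and -0.37 in Kupffer cells. That of RORE genes was -0.64 in such Kupffer cells. At 2-fold, 2 members were past upwards in stellate cells, Nr1d2 being lost, 2 in endothelial, 1 in Kupffer cells and 0 downwards in Kupffer cells. With a minimum of 20 CPM the endothelial and Kupffer counts were 2, 1 and 0, and medians were -0.11 (RORE, stellate), 0.45 (E-box, Kupffer) and -0.06 (RORE, Kupffer). The Kupffer count downwards was 0 with 10% mitochondrial UMIs, without upper limits, with mixed barcodes kept, with either scaling and without shared barcodes (the last added), and 2 with per-cell means, at 10000 to 30000 UMIs and without proliferating cells. The Kupffer count upwards was 1 with looser markers, with mixed barcodes, without proliferating cells and without cells rich in Dbp, Nr1d1 and Ciart. The endothelial E-box median was -0.06 without upper limits, 0.37 with mixed barcodes kept, 0.29 with per-cell means, -0.05 at 10000 to 30000 UMIs and -0.02 at 1 CPM, and the Kupffer one 0.07 at 10000 to 30000 UMIs. The endothelial RORE median was 0.03 with mixed barcodes and 0.21 at 1 CPM and without a minimum, where the stellate E-box median was 0.42 and the Kupffer RORE median -0.37. Thinned to 3000 UMIs, shares of cells were lower by construction, the share of stellate cells with a Per1 UMI being 5.6% in p16-LRTD and 12.6% in p16-Alb-LRTD. The cause of these shifts was not tested. Endothelial and Kupffer cells were few, and members with low levels rested on few UMIs there. All differences compare 2 libraries, and the hour of collection was not known.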
